A study of Mus musculus with 18 samples.

Results

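The genes described here are 39 genes of the mitotic cell cycle, given by name and not by any measured value. All 39 were rows of both count tables, each of 24360 rows, and all 39 passed the filter on low counts in both lines, where 12253 genes of 168FARN and 13665 genes of 67NR were tested. The libraries came from 168FARN and 67NR, a pair of mouse mammary tumour lines described as non-metastatic and grown in DMEM with serum. Each line was sequenced as WT, *Kmt2c* KO and *Kmt2d* KO, with 3 replicates per genotype and 18 libraries in all. *Kmt2c* and *Kmt2d* encode enhancer H3K4 methyltransferases, and the knockouts were sorted pools of cells that had received Cas9 and 3 guides to the start of the gene, not single clones. The WT columns of 168FARN are named for a control guide, and those of 67NR are named only WT. The study's methods describe replicates as collections of a line separated by a passage, so no p-value here measures the spread between separately made knockouts. P-values of fits without the replicate number measure the spread between collections of the same line or pool. In fits with the replicate number, including its own test, they measure the spread left once differences shared by that number are removed.

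Mitotic genes are transcribed late in the cell cycle and fall silent in cells that stop dividing. Their promoters often hold a CHR (cell cycle genes homology region), which MuvB complexes bind, and CCAAT boxes, which NF-Y binds. MuvB with a p130 or p107 partner and an E2F represses these genes in resting cells, whereas MuvB with B-MYB and later FOXM1 activates them as cells near division. The proteins then act in turn: cyclin B with CDK1 starts mitosis, the Aurora and Polo kinases build the spindle, the checkpoint holds the anaphase-promoting complex (APC/C) until every kinetochore is attached, and the central spindle directs cytokinesis. A bulk library averages over all cells of a culture, so fewer cells near division and less RNA per cell cannot be told apart here.

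RefSeq promoter sequences, from 250 bases before to 50 after the start, were matched for 31 of the 39 genes, with 34 promoters in all. A CHR, searched as TTTGAA on both strands, was present in 24 of the 31 genes (77.4%) and in 20.2% of all 27025 genes with such a promoter. The letters CCAAT, on both strands, were present in 24 of the 31 (77.4%) and in 41.1% of all genes. At least 2 CCAAT matches together with TTTGAA or its variant TTCGAA were found in 16 of the 31 genes (51.6%) and in 2.68% of all genes. The 120 bases before the start are shown for 8 genes, chosen to show stretches with both motifs, with one kind only and with none. *Pttg1* and *Ube2c* are included since they were among the genes that departed most from the others below. Capitals mark TTTGAA and CCAAT on either strand, so TTCAAA and ATTGG are the same motifs read on the other strand. The sequences are from the RefSeq table, built on GRCm38.p6, and each matched mm9 exactly at a single place.
Cdk1: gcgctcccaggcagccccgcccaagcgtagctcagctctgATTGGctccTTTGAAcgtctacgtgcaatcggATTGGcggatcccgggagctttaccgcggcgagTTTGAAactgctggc
Ube2c: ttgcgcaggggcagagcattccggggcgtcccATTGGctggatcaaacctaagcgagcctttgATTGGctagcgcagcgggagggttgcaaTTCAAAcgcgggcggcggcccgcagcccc
Cdc20: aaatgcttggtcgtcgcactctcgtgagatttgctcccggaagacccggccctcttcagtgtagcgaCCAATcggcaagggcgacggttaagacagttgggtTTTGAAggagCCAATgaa
Kif11: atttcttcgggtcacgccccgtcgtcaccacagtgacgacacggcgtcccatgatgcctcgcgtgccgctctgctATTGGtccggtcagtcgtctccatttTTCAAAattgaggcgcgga
Mki67: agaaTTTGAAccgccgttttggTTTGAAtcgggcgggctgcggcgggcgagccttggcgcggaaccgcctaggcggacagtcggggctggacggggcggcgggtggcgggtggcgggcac
Ccnb1: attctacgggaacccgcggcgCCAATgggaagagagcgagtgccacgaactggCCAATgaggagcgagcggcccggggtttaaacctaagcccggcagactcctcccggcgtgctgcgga
Pttg1: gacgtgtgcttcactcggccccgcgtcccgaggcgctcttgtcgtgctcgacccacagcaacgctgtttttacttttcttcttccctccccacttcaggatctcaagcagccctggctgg
Birc5: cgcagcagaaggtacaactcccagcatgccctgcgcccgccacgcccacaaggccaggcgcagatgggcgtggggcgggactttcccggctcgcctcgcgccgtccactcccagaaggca

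These stretches lie in mm9 at chr10:68815661-68815780 (minus strand) for *Cdk1*, chr2:164595309-164595428 (plus) for *Ube2c*, chr4:118109949-118110068 (minus) for *Cdc20* and chr19:37450752-37450871 (plus) for *Kif11*. Those of *Mki67*, *Ccnb1*, *Pttg1* and *Birc5* lie at chr7:142908063-142908182 (minus), chr13:101556442-101556561 (minus), chr11:43239484-43239603 (minus) and chr11:117710431-117710550 (plus). *Kif11* had its CCAAT match at -45 and its CHR at -19. *Ccnb1* had CCAAT at -99 and -67 and no CHR in the window. *Mki67* shows only the CHR in its printed stretch but had CCAAT farther upstream, at -188, -166 and -141. *Pttg1*, *Birc5*, *Nuf2* and *Mad2l1* had neither motif in the 300 bases, which says only that these letters are not in this window. The start in the promoter table is not always that of the mm9 gene model used for exon lengths. The *Pttg1* stretch lies inside its model, chr11:43233752-43239753, which begins farther upstream, and the models of *Cdk1*, *Ube2c*, *Cdc20* and *Ccnb1* begin within their printed stretches. Some CHR matches lay just after the start, as in *Aurka* at 33 and *Plk1* at 31.

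**Figure D1:**
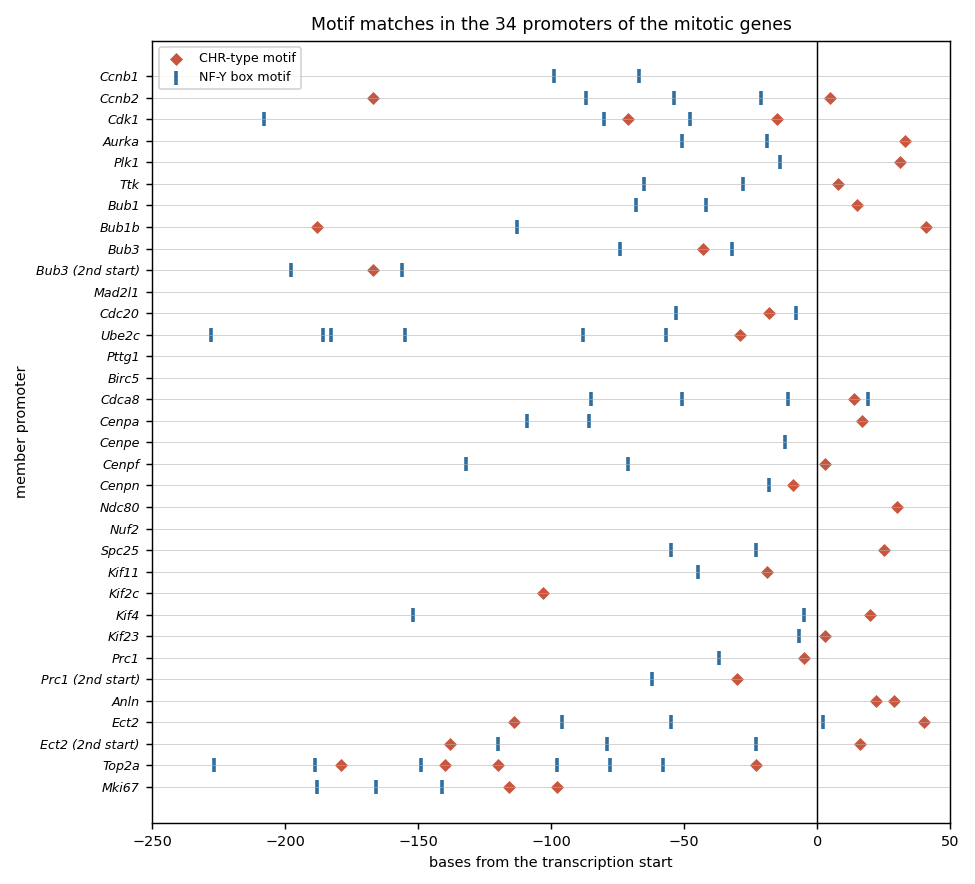
Positions of motif matches (x axis, bases from the transcription start) in the 34 promoters of 31 mitotic genes (y axis). Red diamonds are matches to the CHR or its variant and blue bars are matches to the NF-Y box, and *Pttg1*, *Birc5*, *Nuf2* and *Mad2l1* carry neither.

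Library totals ran from 14359760 to 43427382 counts in 168FARN and from 40951775 to 79251530 in 67NR, and every mitotic gene had at least 123 counts in every library. Reads on *Rn45s*, the ribosomal RNA precursor, took at most 4.96% of counts except in 67NR *Kmt2d* KO replicate 3, where they took 28.7%. The targeted transcripts were not clearly lower in their own knockouts. In CPM (counts scaled to a common library size with TMM factors), *Kmt2c* in replicates 1, 2 and 3 was at 113, 106 and 44.7 in 168FARN WT and 96.7, 89.1 and 46.9 in *Kmt2c* KO, and at 56.9, 63.1 and 54.6 in 67NR WT and 88.9, 95.7 and 85.5 in *Kmt2c* KO. *Kmt2d* was at 160, 159 and 104 in 168FARN WT and 296, 260 and 136 in *Kmt2d* KO, and at 112, 97.2 and 83 in 67NR WT and 94.1, 147 and 97.9 in *Kmt2d* KO. The knockout was below WT in replicates 1 and 2 of *Kmt2c* in 168FARN and in replicate 1 of *Kmt2d* in 67NR and above it otherwise, so the counts give no check of an edit at the start of the gene. The study checked the edits by sequencing the targeted regions, where *Kmt2c* in 67NR had the lowest share of mutant reads. It reported reduced protein by immunoblot in both lines. Of 13 epithelial markers, at most 2 exceeded 1 CPM in every library of any 168FARN group, with 6 to 8 at 0 counts throughout, and 11 or 12 did so in 67NR, while 10 markers of immune and endothelial cells together summed to at most 6.3 CPM in any library.

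**Replicate 3 stood apart in every genotype and in both lines.** The median level of the 39 genes was 52.9, 53.8 and 189 CPM in replicates 1, 2 and 3 of 168FARN WT, 54.3, 61.3 and 196 in *Kmt2c* KO, and 55.5, 50.2 and 202 in *Kmt2d* KO. In 67NR the medians were 17.4, 17 and 156 CPM in WT, 41.9, 44.3 and 147 in *Kmt2c* KO, and 35.5, 33 and 138 in *Kmt2d* KO. Replicates 1 and 2 were close to each other in each group, replicate 3 was the highest in all 6, and the spread among replicates was far wider than that among genotypes. The share of all counts that fell on the 39 genes went from 0.118% and 0.122% to 0.699% in 67NR WT and from 0.264% and 0.268% to 0.901% in 168FARN WT. Replicate 3 was singled out from expression, so its difference from replicates 1 and 2 is given as a description. The test is of the replicate number as a term of 3 levels. With all 3 replicates fitted, an adjusted p printed beside such a difference belongs to this test, not to the difference.

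**Figure D2:**
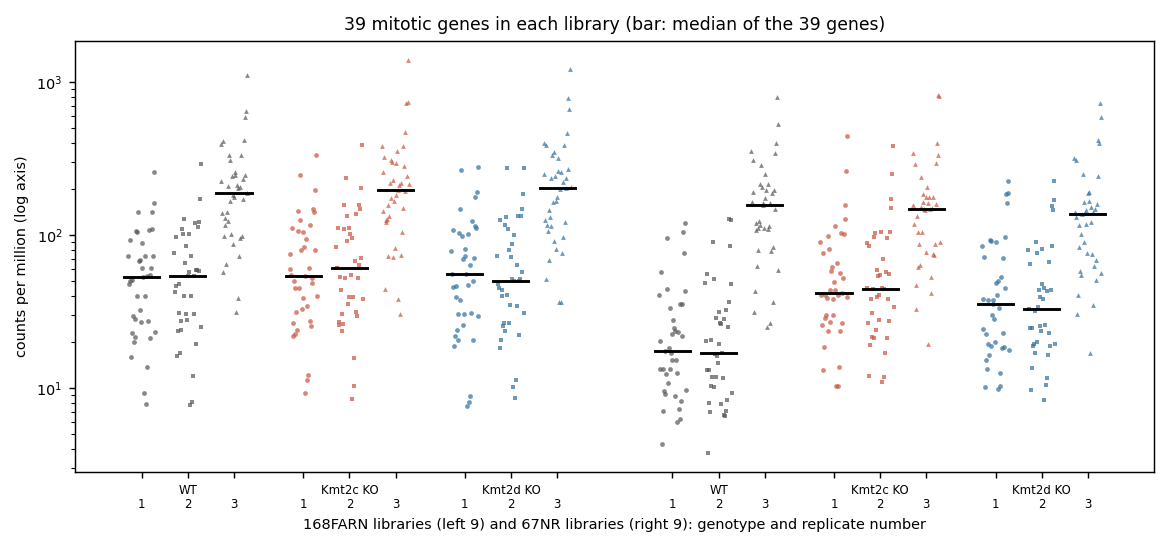
Level of the 39 mitotic genes (y axis, CPM on a log axis) in each of the 18 libraries (x axis, genotype and replicate number, with the 9 libraries of 168FARN on the left and the 9 of 67NR on the right). Each point is a gene and each bar the median of the 39, and replicate 3 has the highest median in every group, for example 189 CPM against 52.9 and 53.8 in 168FARN WT.

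The F test of the replicate number, in an edgeR fit with genotype, called 38 of the 39 genes at adjusted p under 0.05 in 168FARN, all higher in replicate 3, where 31.5% of all genes were called with replicate 3 higher and 32.7% with it lower. In 67NR it called 39 of 39, again all higher, against 16.4% of all genes higher and 16.1% lower. The median fitted difference of replicate 3 from the mean of replicates 1 and 2 was 1.84 on the log2 scale in 168FARN and 2.09 in 67NR, beside -0.01 and -0.02 over all genes. All 3 replicate 3 libraries lay above all 6 others for 38 of 39 genes in 168FARN, the exception being *Pttg1*, and for 38 of 39 in 67NR, the exception being *Kif4*. Over all genes this held for 28.1% in 168FARN and 12.4% in 67NR. With replicate 3 left out, the same test between replicates 1 and 2 called 0 of the 39 in either line in edgeR. At an unadjusted p under 0.05 there were 3 in 168FARN and 0 in 67NR. The shares over all genes in that test are not given here, so these counts are not read as particular to the mitotic genes. The largest differences were those of *Foxm1* (2.73), *Spc25* (2.6) and *Cenpf* and *Birc5* (2.5 each) in 168FARN, and of *Ube2c* (2.91), *Ccnb2* (2.86) and *Spc24* (2.81) in 67NR.

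Among the genes of CDK1 control, *Ccnb1*, which encodes cyclin B1, was at 48, 42.8 and 226 CPM in 168FARN WT, 60.1, 61.3 and 256 in *Kmt2c* KO and 55.5, 47.7 and 249 in *Kmt2d* KO. In 67NR it was at 20.3, 20.3 and 165 CPM, at 40.7, 45 and 156, and at 38.3, 33 and 142 in the same order of genotypes. No replicate 3 library of either line overlapped the others, and the fitted difference of replicate 3 was 2.22 (SE 0.09, adjusted p = 8.8e-09) in 168FARN and 2.32 (SE 0.18, adjusted p = 4.6e-05) in 67NR. *Cdk1*, the kinase that cyclin B activates, differed by 1.81 (SE 0.11) and 2.16 (SE 0.12) on the log2 scale. All 5 genes of this role were called in both lines, from 1.36 for *Cdc25c* to 2.35 for *Ccna2* in 168FARN.

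All 5 mitotic kinases were called in both lines. *Aurka*, the centrosomal Aurora kinase, differed by 2.29 (SE 0.09) in 168FARN and 1.8 (SE 0.19) in 67NR, and *Aurkb*, the kinase of the chromosomal passenger complex, by 1.24 (SE 0.08) and 2.44 (SE 0.2). *Plk1*, the Polo kinase, differed by 1.84 (SE 0.1) and 2.76 (SE 0.29). The 3 partners of Aurora B in the passenger complex were called in both lines, and *Birc5*, which encodes survivin and whose promoter above held neither motif, was at 32.2, 30.4 and 182 CPM in 168FARN WT and at 16.9, 16.3 and 156 in 67NR WT.

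In the checkpoint, *Bub1b*, which encodes BUBR1, differed by 2.41 (SE 0.08) in 168FARN and 2.01 (SE 0.19) in 67NR, and *Mad2l1*, which encodes MAD2, by 1.34 (SE 0.11) and 1.71 (SE 0.15). *Bub3*, whose product is shared by BUB1 and BUBR1, differed least in 67NR, at 0.54 (SE 0.09, adjusted p = 0.0034). *Bub3* stood at 95, 90.5 and 123 CPM in 67NR WT, 99.2, 96.4 and 152 in *Kmt2c* KO and 93, 90.5 and 138 in *Kmt2d* KO. These are narrow ranges, yet the replicate 3 libraries were still the highest 3 of 9.

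The genes of APC/C and separase control were the most uneven in 168FARN, from -0.1 to 1.98. In 67NR they lay close together, from 2.54 to 2.91. *Cdc20*, the mitotic activator of the APC/C, differed by 1.98 (SE 0.08) in 168FARN and 2.61 (SE 0.23) in 67NR. *Ube2c*, the E2 enzyme of the APC/C, had the largest difference in 67NR (2.91, SE 0.31, adjusted p = 0.00074) and the smallest of the called genes in 168FARN (0.64, SE 0.15, adjusted p = 0.008). *Ube2c* was at 18.4, 16.7 and 285 CPM in 67NR WT, 43.6, 39.5 and 185 in *Kmt2c* KO and 30, 34.1 and 164 in *Kmt2d* KO, but at 142, 128 and 311 CPM in 168FARN WT, 247, 237 and 298 in *Kmt2c* KO and 265, 275 and 348 in *Kmt2d* KO. Its lowest replicate 3 library in 168FARN lay only just above the highest of the others.

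*Pttg1*, which encodes securin, the inhibitor of separase, was the single gene not called in 168FARN (-0.1, SE 0.22, adjusted p = 0.9). Its levels there were 67.7, 65.7 and 102 CPM in WT, 126, 133 and 72.1 in *Kmt2c* KO and 98.3, 109 and 91.4 in *Kmt2d* KO, so replicate 3 was the highest in WT and the lowest in both knockouts. In 67NR the same gene stood at 13.4, 11.9 and 206 CPM in WT, 58.3, 59.1 and 164 in *Kmt2c* KO and 37.8, 43.6 and 140 in *Kmt2d* KO, with every replicate 3 library above the rest (2.54, SE 0.47, adjusted p = 0.018). Replicate 3 over the mean of replicates 1 and 2 was 0.559 for *Pttg1* in 168FARN *Kmt2c* KO and 16.2 in 67NR WT, close to the ends of the whole range.

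All 8 centromere and kinetochore genes were called in both lines, with medians of 1.99 in 168FARN and 2.16 in 67NR. *Cenpa*, the histone H3 variant of centromeres, differed by 1.24 (SE 0.13) and 2.29 (SE 0.2), *Cenpf* by 2.5 (SE 0.1) and 2.32 (SE 0.16), and *Ndc80*, the microtubule coupler of the kinetochore, by 1.2 (SE 0.11) and 2.12 (SE 0.28). The spindle genes *Kif11*, a bipolar motor, and *Tpx2*, which activates Aurora A, differed by 1.84 (SE 0.08) and 1.58 (SE 0.08) in 168FARN. Among genes of the midzone and cytokinesis, *Prc1*, which bundles midzone microtubules, differed by 1.82 (SE 0.09) in 168FARN and 1.66 (SE 0.12) in 67NR and *Kif23*, the centralspindlin motor, by 1.66 (SE 0.11) and 2.2 (SE 0.23). *Kif4*, a kinesin of chromosome arms and midzone, overlapped in 67NR because its WT replicate 3 was at 36.7 CPM and *Kmt2c* KO replicates 1 and 2 were at 41.9 and 38.4.

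*Foxm1*, the transcription factor that activates these genes in G2, had the largest difference in 168FARN (2.73, SE 0.1, adjusted p = 4.8e-09). It was at 23.3, 25.3 and 189 CPM in WT, 40.3, 38.2 and 216 in *Kmt2c* KO and 29.7, 31 and 205 in *Kmt2d* KO. *Top2a*, the topoisomerase that untangles sister chromatids, differed by 1.89 (SE 0.08) and *Mki67*, the proliferation antigen Ki-67, by 2.03 (SE 0.09). Across the 25 genes with a CHR or its variant and the 6 matched genes without, the median replicate 3 difference was 1.84 and 1.89 in 168FARN and 2.07 and 2.26 in 67NR.

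**Figure D3:**
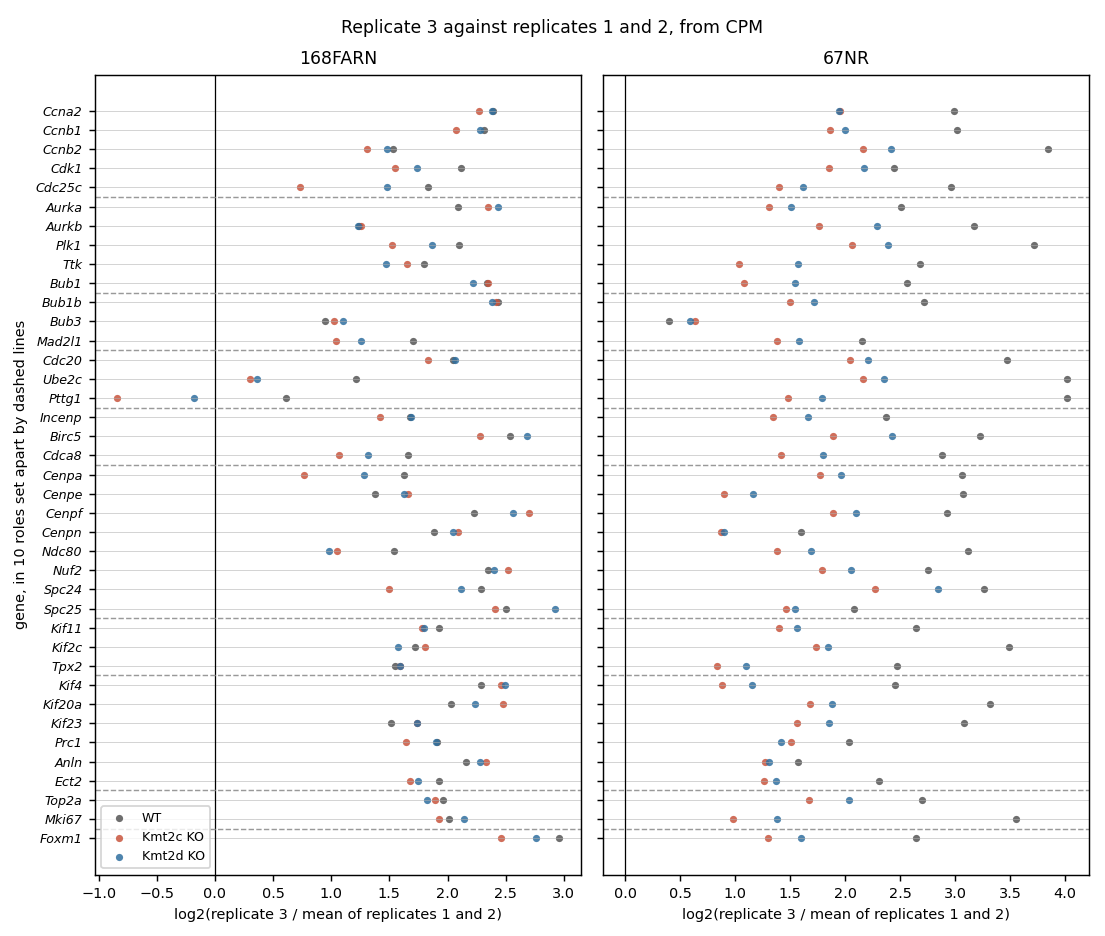
Log2 ratio of replicate 3 to the mean of replicates 1 and 2 (x axis, from CPM) for each gene (y axis, ordered by role), with a point for each genotype, in 168FARN (left) and 67NR (right). Points lie right of 0 except *Pttg1* in the 168FARN knockouts, and in 67NR the WT points lie farthest right for 38 of the 39 genes, with *Bub3* the exception.

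The rest of the mitotic programme and the S phase genes moved with replicate number as well. Over all genes this test called 31.5% higher and 32.7% lower in replicate 3 of 168FARN, and 16.4% and 16.1% in 67NR. Of 73 further mitotic genes, 68 were called higher and 2 lower in replicate 3 of 168FARN, with the smallest p for *Melk* (3.02, SE 0.09) and *Cep55* (2.29, SE 0.1), and 64 were called higher and 0 lower in 67NR, with the smallest p for *Pbk* (2.29, SE 0.14) and *Tacc3* (2.41, SE 0.16), with medians of 1.41 and 1.6. Of 23 S phase genes, 21 were called higher in each line and 1 lower in 168FARN, with medians of 2.38 and 1.62. The smallest p belonged to *Mcm5* (4.18, SE 0.11) and *Tyms* (3.34, SE 0.08) in 168FARN and to *Rrm1* (2.13, SE 0.11) and *Uhrf1* (2.36, SE 0.12) in 67NR. *Mcm5*, a subunit of the replicative helicase, went from 10.3 and 11.5 to 161 CPM in 168FARN WT. Of 22 MuvB, B-MYB, E2F and NF-Y factors, 14 were called higher and 5 lower in 168FARN and 9 higher and 2 lower in 67NR. *Mybl2*, which encodes B-MYB, went from 3.45 and 3.72 to 52 CPM in 168FARN WT (3.81 in the fit, SE 0.11), and *Rbl1*, which encodes p107, differed by 2.15 (SE 0.09) there and 1.52 (SE 0.1) in 67NR.

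APC/C subunits and regulators had smaller medians. Of 17, 12 were called higher in 168FARN with a median of 0.66, and 5 higher and 2 lower in 67NR with a median of 0.27. *Fbxo5*, the APC/C inhibitor EMI1, led both (1.58, SE 0.09, and 1.98, SE 0.17). Of 13 tested CDK inhibitors and G1 cyclins, 6 were called higher and 3 lower in each line. *Ccne1*, which encodes cyclin E1, was at 2.37 (SE 0.13) in 168FARN and *Ccnd2*, which encodes cyclin D2, at -1.43 (SE 0.13) in 67NR. Beside both lists, 31.5% of all genes were called higher and 32.7% lower in 168FARN, and 16.4% and 16.1% in 67NR. *Cdkn1a*, which encodes the CDK inhibitor p21, lay lower in replicate 3 of every group, at 278, 316 and 156 CPM in 168FARN WT and 42.3, 34.9 and 11.4 in 67NR WT. The study's methods treat each collection time as a batch in some displays, but neither they nor the labels say which replicate numbers were collected together. What set the replicate 3 libraries apart was not tested.

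**In 168FARN no mitotic gene differed between genotypes when all replicates were fitted by genotype alone.** In the edgeR fit of 9 libraries, 0 of 39 were called in *Kmt2c* KO against WT, where 0.188% of all genes were called. In *Kmt2d* KO against WT 0 were called, where 0.155% of all genes were. The counts at an unadjusted p under 0.05 were 0 and 0, beside 5.92% and 5.28% of all genes. DESeq2 called 0 and 0. The smallest p values belonged to *Pttg1* (0.49, SE 0.27, adjusted p = 1) and *Ube2c* (0.43, SE 0.34, adjusted p = 1) in *Kmt2c* KO, and to *Ube2c* (0.61, SE 0.34, adjusted p = 1) and *Pttg1* (0.35, SE 0.27, adjusted p = 1) in *Kmt2d* KO. The median standard error of the 39 genes was 0.78 on the log2 scale in each comparison, so changes of the size of the median fold changes, 0.15 and 0.12, were not detectable in this fit. These medians turned with single libraries, from -0.73 without *Kmt2c* KO replicate 3 to 1.15 without WT replicate 3 for *Kmt2c* KO, and from -0.78 without *Kmt2d* KO replicate 3 to 1.1 without WT replicate 3 for *Kmt2d* KO.

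Blocking on the replicate number lowered the median standard error to 0.11. In that fit 5 genes were called higher in *Kmt2c* KO and 1 in *Kmt2d* KO, and 0 lower, against 5.51% and 3.3% of all genes called higher and 5.17% and 3.35% called lower. The 5 were *Cenpa* (0.62, SE 0.16, adjusted p = 0.025), *Foxm1* (0.52, SE 0.12, adjusted p = 0.017), *Kif4* (0.5, SE 0.11, adjusted p = 0.013), *Mki67* (0.38, SE 0.11, adjusted p = 0.047) and *Prc1* (0.36, SE 0.11, adjusted p = 0.049). The gene called in *Kmt2d* KO was *Ube2c* (0.7, SE 0.18, adjusted p = 0.038). Replicates 1 and 2 alone, with 2 libraries per group and chosen after seeing that replicate 3 stood apart, called 15 genes higher in *Kmt2c* KO and 7 in *Kmt2d* KO, and 0 lower, against 16% and 11.4% of all genes higher and 13.5% and 9.75% lower. At an unadjusted p under 0.05 there were 20 and 14 of the 39, beside 41.1% and 34.8% of all genes. The largest were *Pttg1* (0.97, SE 0.1), *Cenpa* (0.92, SE 0.11) and *Ube2c* (0.85, SE 0.1) in *Kmt2c* KO, and *Ube2c* (1.01, SE 0.1), *Pttg1* (0.65, SE 0.1) and *Ndc80* (0.49, SE 0.1) in *Kmt2d* KO.

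The *Pttg1* and *Ube2c* differences were smaller or turned in replicate 3. For *Pttg1* the log2 ratio of *Kmt2c* KO to WT was 0.9 and 1.02 in replicates 1 and 2 and -0.5 in replicate 3, and for *Ube2c* it was 0.8, 0.89 and -0.06. For *Kmt2d* KO the ratios were 0.54, 0.73 and -0.15 for *Pttg1* and 0.9, 1.1 and 0.16 for *Ube2c*, which stayed above WT at every replicate number. In *Kmt2c* KO, *Mki67* gave 0.38, 0.43 and 0.33, and *Foxm1* 0.79, 0.59 and 0.19. Over the 39 genes the median ratio of *Kmt2c* KO to WT was 0.16, 0.3 and 0.1 in replicates 1, 2 and 3, with 31, 36 and 26 genes higher, and that of *Kmt2d* KO was 0.16, 0.15 and 0.06, with 27, 24 and 24 higher.

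Further mitotic genes in 168FARN followed the same pattern. With all replicates 0 of 73 were called in either knockout, and in replicates 1 and 2 alone 17 were called higher and 2 lower in *Kmt2c* KO and 13 higher and 2 lower in *Kmt2d* KO, where 16% and 11.4% of all genes were higher and 13.5% and 9.75% lower. With the block the counts were 7 higher and 1 lower and 2 higher and 0 lower, where 5.51% and 3.3% of all genes were higher. Those called in replicates 1 and 2 included *Cenpi*, a kinetochore gene (1.15, SE 0.18, and 1.37, SE 0.18). The direct comparison of the knockouts called 0 of 39 by genotype alone (0.171% of all genes, 0 by DESeq2) and 0 with the block (6.63% of all genes). At an unadjusted p under 0.05 there were 0 by genotype alone and 8 with the block, beside 5.03% and 22% of all genes. In replicates 1 and 2 alone 7 were called higher in *Kmt2c* KO than in *Kmt2d* KO (8.56% of all genes), with *Cenpa* the largest (0.57, SE 0.11). Called lower was 1 (8.44% of all genes), *Nuf2* (-0.4, SE 0.11).

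**In 67NR the mitotic genes lay higher in both knockouts than in WT in replicates 1 and 2, and not in replicate 3.** The median log2 ratio of *Kmt2c* KO to WT over the 39 genes was 1.25, 1.24 and -0.08 in replicates 1, 2 and 3, with 38, 39 and 15 genes higher. That of *Kmt2d* KO was 1.04, 0.79 and -0.15, with 37, 37 and 9 genes higher. Over all genes the medians lay between -0.04 and 0. The WT libraries set this contrast: the median of WT was 17.4 and 17 CPM in replicates 1 and 2, below every other library of the line, and 156 CPM in replicate 3, above every other library.

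**Figure D4:**
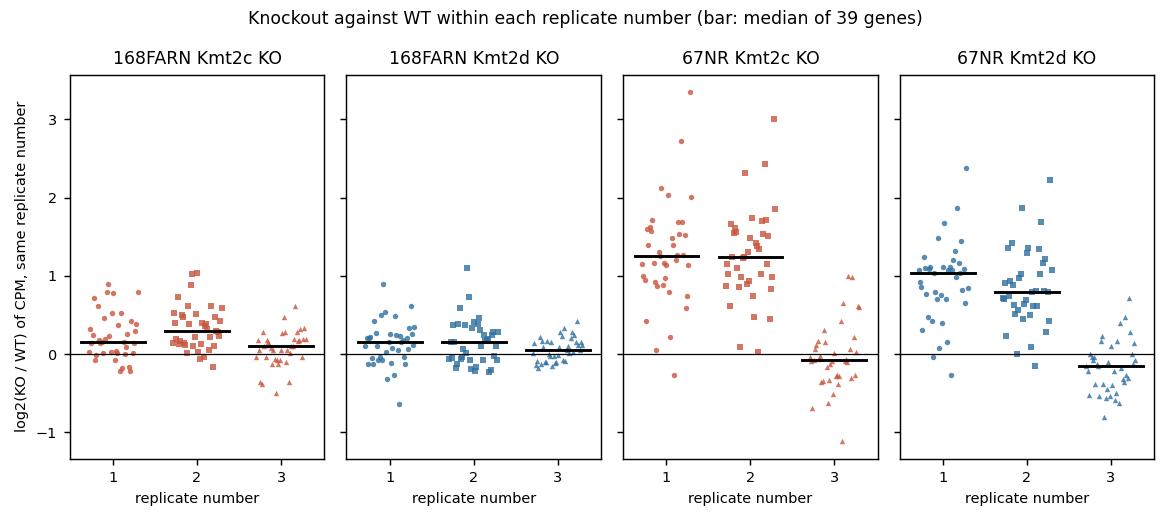
Log2 ratio of knockout to WT (y axis, from CPM) within each replicate number (x axis), with a point for each of the 39 genes and a bar at their median, for *Kmt2c* KO and *Kmt2d* KO of 168FARN and 67NR. In 67NR the medians are 1.25, 1.24 and -0.08 for *Kmt2c* KO and 1.04, 0.79 and -0.15 for *Kmt2d* KO.

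With all replicates fitted by genotype alone, 0 of 39 were called in *Kmt2c* KO against WT, although 34.2% of all genes were, and 0 in *Kmt2d* KO against WT, although 22.8% were. The counts at an unadjusted p under 0.05 were 1 and 0, beside 43.6% and 34.8% of all genes. DESeq2 called 1 gene in *Kmt2c* KO, *Kif4* (adjusted p = 0.031), and 0 in *Kmt2d* KO. The smallest p values in edgeR belonged to *Kif4* (1.62, SE 0.68, adjusted p = 0.094) and *Prc1* (1.19, SE 0.68, adjusted p = 0.22) in *Kmt2c* KO, and to *Kif4* (0.96, SE 0.67, adjusted p = 0.35) and *Prc1* (0.95, SE 0.68, adjusted p = 0.37) in *Kmt2d* KO. The median fold change against WT was 0.31 for *Kmt2c* KO and 0.09 for *Kmt2d* KO, with a median standard error of 0.87 in each.

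With the replicate block, 24 genes were called higher in *Kmt2c* KO and 8 in *Kmt2d* KO, and 0 lower, against 26.3% and 21.3% of all genes called higher and 26.2% and 20.5% called lower. In replicates 1 and 2 alone, with 2 libraries per group, 36 of 39 were called higher in *Kmt2c* KO and 34 of 39 in *Kmt2d* KO, and 0 lower, against 30.2% and 25.9% of all genes higher and 30.2% and 25.4% lower. The genes not called there were *Bub3*, *Cenpn* and *Spc24* in both knockouts, with *Cdk1* and *Incenp* besides in *Kmt2d* KO. The genotype fit without WT replicate 3 alone called 14 and 7 of the 39, all higher. In either direction it called 38.3% and 26.4% of all genes, and the shares called higher are not given here.

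The largest differences in replicates 1 and 2 were those of *Mki67*, *Kif4* and *Pttg1* in both knockouts. *Mki67* was at 43.4, 47.7 and 533 CPM in WT, 443, 383 and 812 in *Kmt2c* KO and 226, 224 and 587 in *Kmt2d* KO. The knockout libraries were above WT at each replicate number, by 3.35, 3.01 and 0.61 on the log2 scale in *Kmt2c* KO and 2.38, 2.23 and 0.14 in *Kmt2d* KO, and the fit of replicates 1 and 2 gave 3.17 (SE 0.12, adjusted p = 2e-13) and 2.3 (SE 0.12, adjusted p = 1.6e-11). *Kif4* was at 6.32, 7.11 and 36.7 CPM in WT, 41.9, 38.4 and 73.6 in *Kmt2c* KO and 23.1, 22.9 and 51 in *Kmt2d* KO, again above WT at each number, with 2.57 (SE 0.14) and 1.77 (SE 0.14) in replicates 1 and 2. *Pttg1*, in contrast, was above WT in replicates 1 and 2 (2.2, SE 0.14, and 1.67, SE 0.13) and below it in replicate 3, at 164 and 140 against 206 CPM.

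*Prc1*, like *Mki67* and *Kif4*, was above WT at every replicate number. It stood at 35.5, 36.7 and 147 CPM in WT, 102, 105 and 293 in *Kmt2c* KO and 96.4, 85.2 and 242 in *Kmt2d* KO. The log2 ratio to WT was 1.52, 1.51 and 0.99 in *Kmt2c* KO and 1.44, 1.22 and 0.72 in *Kmt2d* KO, and with the block *Prc1* gave the smallest adjusted p of the 39 (1.33, SE 0.15, adjusted p = 2e-05, and 1.12, SE 0.15, adjusted p = 0.00013). *Spc25*, a subunit of the NDC80 complex, and *Nuf2*, another subunit, were also called with the block in both knockouts. *Spc24*, the partner of SPC25, gave -0.13 (SE 0.15) and -0.22 (SE 0.15) in replicates 1 and 2 and was lower than WT in replicate 3 by -1.11 and -0.62.

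By role, in replicates 1 and 2 of *Kmt2c* KO, all 5 mitotic kinases were called higher with a median of 1.58, among them *Aurkb* (1.58, SE 0.13), *Plk1* (1.59, SE 0.19) and *Aurka* (1.31, SE 0.15). All 5 cyclin and CDK1 control genes were called with a median of 1, from 0.51 for *Cdk1* to 1.62 for *Cdc25c*, and all 3 genes of APC/C and separase control, with *Cdc20* at 1.27 (SE 0.14) and *Ube2c* at 1.24 (SE 0.13). Of 8 centromere and kinetochore genes 6 were called, with *Cenpa* at 1.3 (SE 0.13), *Cenpf* at 0.77 (SE 0.12) and *Ndc80* at 1.45 (SE 0.13). *Foxm1* was at 9.79, 9.25 and 59.3 CPM in WT and 39.4, 33.7 and 89.6 in *Kmt2c* KO (1.93, SE 0.14). In *Kmt2d* KO the same kinases had a median of 0.91, and *Foxm1* gave 0.96 (SE 0.14), *Birc5* 0.69 (SE 0.13), *Top2a* 0.53 (SE 0.11), *Kif11* 0.9 (SE 0.14), *Tpx2* 1 (SE 0.12) and *Kif23* 0.91 (SE 0.13).

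**Figure D5:**
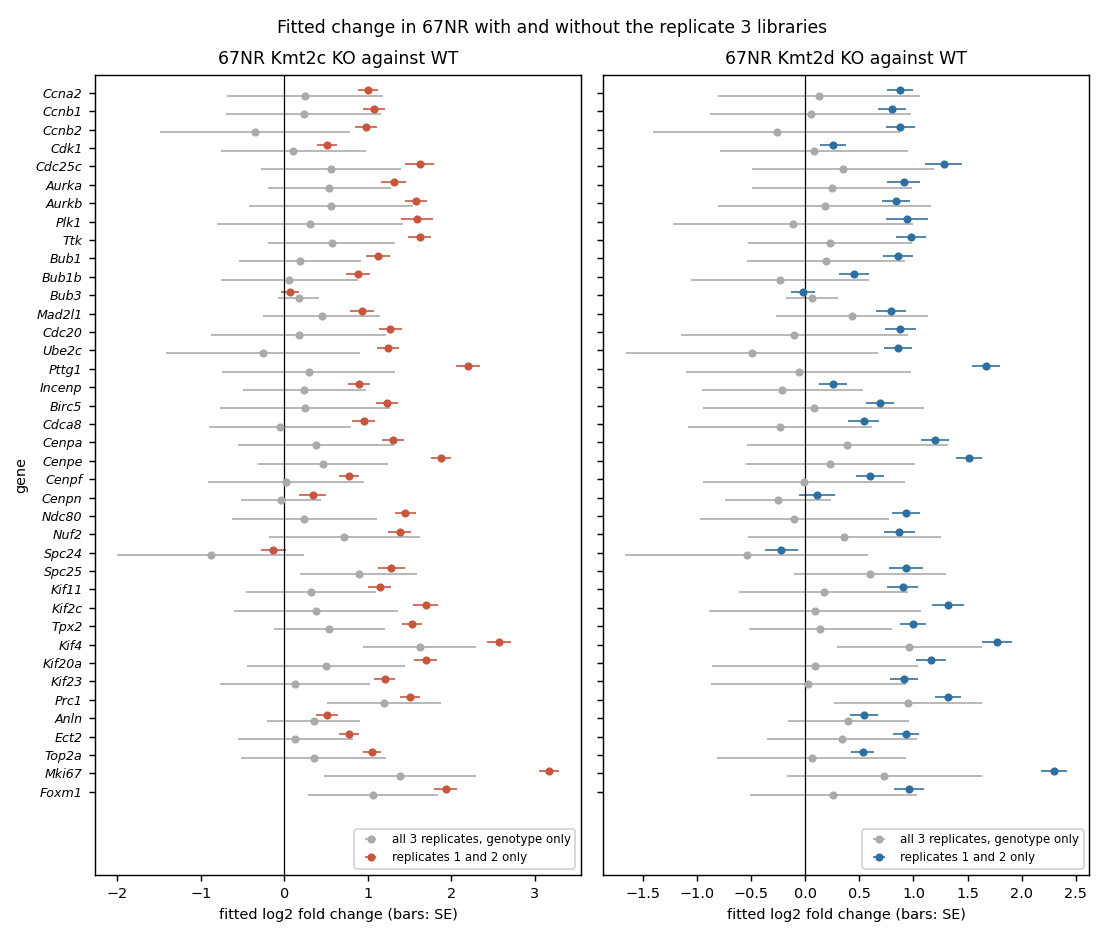
Fitted log2 fold change against WT with its standard error (x axis) for each of the 39 genes (y axis) in 67NR *Kmt2c* KO (left) and *Kmt2d* KO (right). Grey points are the fit of all 3 replicates by genotype alone, with a median standard error of 0.87, and coloured points are replicates 1 and 2 only, with a median standard error of 0.13.

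Epithelial markers moved with the same groups. The summed level of 13 of them was 3660 to 5620 CPM in 67NR WT, 751 to 1150 in *Kmt2c* KO and 1280 to 2300 in *Kmt2d* KO, with 1 of the 13 at 0 counts in every library of each group. Of the 12 tested, 10 and 8 were called lower by genotype alone, led in *Kmt2c* KO by *Cdh1*, which encodes E-cadherin (-2.8, SE 0.19, adjusted p = 1.1e-05), and of 10 mesenchymal markers 7 were called higher and 1 lower in each knockout. Over all genes these fits called 34.2% and 22.8% in either direction. Their part in the mitotic gene differences was not tested.

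Between the knockouts of 67NR, 0 of 39 were called by genotype alone (0.659% of all genes, 0 by DESeq2) and 0 with the block (6.15% of all genes). At an unadjusted p under 0.05 there were 0 by genotype alone and 6 with the block, beside 10.9% and 23.1% of all genes. In replicates 1 and 2 alone 19 were called higher in *Kmt2c* KO than in *Kmt2d* KO, against 9.26% of all genes, and 0 lower, against 12.9%. *Foxm1* (0.98, SE 0.14, adjusted p = 6.8e-05), *Mki67* (0.88, SE 0.12) and *Kif4* (0.81, SE 0.13) differed most.

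Other genes of the cycle did not all share this direction in 67NR. In these fits of replicates 1 and 2, 30.2% of all genes were called higher and 30.2% lower in *Kmt2c* KO, and 25.9% higher and 25.4% lower in *Kmt2d* KO. Of 73 further mitotic genes, 60 were called higher and 1 lower in replicates 1 and 2 of *Kmt2c* KO, with *Gtse1* at 3.48 (SE 0.17) and *Psrc1* at 3.69 (SE 0.19), and 45 higher and 6 lower in *Kmt2d* KO. Of 23 S phase genes, 10 were called higher and 7 lower in *Kmt2c* KO, with *Rrm2*, a subunit of ribonucleotide reductase, at 1.68 (SE 0.13) and *Ung*, the uracil DNA glycosylase, at -1.76 (SE 0.18). In *Kmt2d* KO 5 were higher and 12 lower, with the helicase subunits *Mcm6* at -1.62 (SE 0.12) and *Mcm5* at -1.38 (SE 0.14). *Mcm6* was at 113, 116 and 149 CPM in 67NR WT and 39, 36.2 and 143 in *Kmt2d* KO, so the helicase gene was lower in the same libraries in which *Mki67* was higher.

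Among the upstream factors, 13 of 22 were called higher and 3 lower in replicates 1 and 2 of 67NR *Kmt2c* KO and 8 higher and 3 lower in *Kmt2d* KO, led by *E2f8* (2.09, SE 0.12, and 1.4, SE 0.12) and *E2f7* (2.31, SE 0.17, and 1.51, SE 0.17), both repressor E2Fs. For *Kmt2c* KO 3 of the 17 APC/C subunits and regulators passed the test upwards and 6 downwards, and for *Kmt2d* KO 3 and 5, with the downward counts near the shares of all genes. By genotype alone, 34.2% of all genes were called in either direction in *Kmt2c* KO and 22.8% in *Kmt2d* KO. Of 13 tested CDK inhibitors and G1 cyclins, these fits called 6 higher and 0 lower in *Kmt2c* KO, and 4 higher and 1 lower in *Kmt2d* KO. Among them *Cdkn1a* and *Cdkn2a* were above WT at every replicate number. *Cdkn1a* was at 42.3, 34.9 and 11.4 CPM in WT, 267, 240 and 153 in *Kmt2c* KO and 150, 169 and 97.9 in *Kmt2d* KO, and was called by genotype alone (2.89, SE 0.47, adjusted p = 0.0014, and 2.23, SE 0.45, adjusted p = 0.0075). *Cdkn2a*, the locus of p16 and p19ARF, which gene counts do not separate, was at 1.1, 0.817 and 0.72 CPM in WT and at 10.9, 9.69 and 10.2 in *Kmt2c* KO (3.53, SE 0.27, adjusted p = 1.6e-05), and at 6.21, 9.22 and 9.07 in *Kmt2d* KO (3.2, SE 0.26, adjusted p = 4.5e-05).

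**The difference of the knockout effect between lines rested on replicates 1 and 2.** Tested as an interaction over all 18 libraries, 0 of 39 were called for *Kmt2c* KO, where 11.5% of all genes were. For *Kmt2d* KO 0 were called, where 7.3% of all genes were. The counts at an unadjusted p under 0.05 were 0 and 0, beside 23.8% and 18.8% of all genes. DESeq2 called 0 and 0. With the block, 8 genes were called with a larger fold change in 67NR and 1 with a smaller for *Kmt2c* KO, against 17.6% and 18.7% of all genes, and 3 and 0 for *Kmt2d* KO, against 15% and 14%. The 3 were *Prc1* (0.9, SE 0.18, adjusted p = 0.0012), *Spc25* (0.88, SE 0.24, adjusted p = 0.0096) and *Kif4* (1.06, SE 0.34, adjusted p = 0.028), and *Spc24* was the smaller for *Kmt2c* KO (-0.71, SE 0.26, adjusted p = 0.046). In replicates 1 and 2 alone, 29 and 26 genes were called with a larger fold change in 67NR, against 21.3% and 19.5% of all genes, and 1, *Spc24*, with a smaller one for *Kmt2c* KO and 0 for *Kmt2d* KO, against 21.7% and 17.1%. *Mki67* led both (2.69, SE 0.16, and 2.24, SE 0.16).

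**The WT lines differed in these genes in replicates 1 and 2.** By groups alone 0 of 39 differed between 168FARN WT and 67NR WT, where 36.5% of all genes did, and DESeq2 called 0. At an unadjusted p under 0.05 there were 0 of 39, beside 44.7% of all genes. *Prc1* (1.54, SE 0.79, adjusted p = 0.14) and *Kif20a* (1.79, SE 1.04, adjusted p = 0.2) had the smallest p. In replicates 1 and 2 alone 35 were called higher in 168FARN, against 32.5% of all genes, and 1 lower, against 36.4%, *Spc24* (-0.55, SE 0.15, adjusted p = 0.0028). *Ube2c* (2.99, SE 0.12), *Kif20a* (2.8, SE 0.12) and *Mki67* (2.62, SE 0.12) differed most. *Mki67* stood at 257, 289 and 1100 CPM in 168FARN WT beside the 43.4, 47.7 and 533 CPM given for 67NR WT. Each line has its own table, so the line and anything else that differs between the tables cannot be told apart.

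Per kilobase of exon the order of the genes changed with the replicate. In 168FARN WT replicates 1 and 2, *Ube2c* (54.6 and 49.2 CPM per kb), *Bub3* (51.6 and 53.5) and *Mad2l1* (47.2 and 45.8) were the highest and did not separate from each other, and *Kif4* (3.84 and 3.52) was the lowest. In replicate 3 *Mad2l1* (152), *Cdk1* (120) and *Ube2c* (120) led. In 67NR WT replicates 1 and 2, *Bub3* (46.2 and 44) stood clear of *Mad2l1* (20.1 and 23.6) and *Anln* (19.4 and 23.4), whereas in replicate 3 *Ccnb2* (123), *Ube2c* (110) and *Pttg1* (103) led and *Bub3* was at 59.9. *Kif4* was again the lowest in 67NR WT, at 1.15, 1.29 and 6.66 CPM per kb.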

How the data were processed

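Polyadenylated RNA of 18 libraries, 3 for each of 6 groups of line and genotype, was sequenced as 150-bp pairs. Per the labels and the study's methods, the authors aligned reads with STAR to mm9 and deposited raw counts per gene symbol, in a separate table for each line. The library kit was strand-specific, but the STAR version and the strand setting of the counting are not given in the sources used here, so overlapping genes may not be told apart. The table for 67NR has some symbols turned into dates and 2 duplicated symbols, and 24333 symbols were in both tables. No column was left without a sample (0 such columns).

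Counts were filtered with edgeR's filterByExpr (minimum count 10), scaled with TMM factors and fitted with edgeR's quasi-likelihood test (version 4.0.16, R 4.3.3), with genotype alone as the main design, after the authors' model. P-values were adjusted by Benjamini-Hochberg over all genes of a comparison, over 11 comparisons fitted separately, and called under 0.05. Fold changes are log2 with standard errors. DESeq2 (1.42.0), a block on replicate number, other scaling and filters, another threshold and each library left out in turn were the alternatives. Fits were tested on simulated counts with known changes. These counts were drawn without the wide replicate 3 shift of the real libraries, so they do not show how the genotype fits behave under it.

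Replicate numbers from the column labels were used as the block. Correlations of deviations from group means between libraries of the same number were 0.65 to 0.9 in 168FARN and 0.35 to 0.72 in 67NR. Those of replicate 3 with replicates 1 or 2 were -0.82 to -0.71 and -0.6 to -0.42. Deviations within a group cancel out, so a shift shared by replicate 3 alone gives these signs. They do not show pairing by number. Replicates 1 and 2 also correlated with each other (0.62 to 0.73 and 0.28 to 0.52), about as much as libraries that shared either number, so the block mainly separates replicate 3. Replicates 1 and 2 alone were added as an alternative for the counts of called genes after seeing that replicate 3 stood apart. No replicates agreed within sampling noise. The mitotic genes, the further lists and the markers were chosen with earlier results of these data known. The text names lead genes of each role, the 3 called members with the largest absolute fold change in each direction of a comparison or, with none called, the 2 with the smallest p, and the genes with the smallest p in each further list. Other genes, such as *Cdkn1a* by replicate, *Bub3* and *Cdh1*, were chosen after their values were seen. Promoters were scanned with Python 3.11.15. Counting error at the depths given is small beside the spread between replicates.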

Additional observations from a re-analysis of the deposited data

How the results depend on the processing

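With replicate 3 left out, the test of the replicate number called 0 genes in both lines, so the counts over libraries left out ran from 0 to 38 in 168FARN and from 0 to 39 in 67NR. Leaving out replicate 2 gave 36 in 67NR, where *Mki67* was not called (1.93, adjusted p = 0.17). The replicate block raised the count of called genes from 0 to 5 and 1 for *Kmt2c* KO and *Kmt2d* KO of 168FARN, to 24 and 8 for those of 67NR, and to 9 and 3 for the 2 interactions. Replicates 1 and 2 alone gave 15, 7 and 8 in 168FARN (the knockouts against WT, then against each other) and 36, 34 and 19 in 67NR. They gave 30 and 26 for the interactions and 36 between the WT lines. Calls over all genes rose in these fits as well, with the shares given with each comparison above. With the block in 168FARN *Kmt2c* KO they went from 0.188% to 5.51% higher and 5.17% lower. The 8 of 39 in 67NR *Kmt2d* KO with the block stood beside 21.3% of all genes called higher. For *Kmt2c* KO of 67NR, DESeq2 called 1 gene, as did adjusted p under 0.1 with a log2 change over 0.6.

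Single replicate 3 libraries moved the other results. Over single libraries left out, the counts ran from 0 to 14 for *Kmt2c* KO and 0 to 7 for *Kmt2d* KO of 67NR and from 0 to 16 between the WT lines, the highest each time without 67NR WT replicate 3. The median fold changes in 168FARN ran from -0.73 to 1.15 for *Kmt2c* KO and from -0.78 to 1.1 for *Kmt2d* KO, the lowest without replicate 3 of the knockout and the highest without that of WT. Those in 67NR ran from -0.37 to 1.98 and from -0.78 to 1.73, and *Pttg1* from -0.39 to 2.89 and from -0.89 to 2.54, with the ends at the same libraries of that line. *Pttg1* in *Kmt2d* KO turned positive with the block (0.78) and in replicates 1 and 2 (1.67). The interaction of *Kif4* with *Kmt2c* KO ran from -0.08 without 168FARN WT replicate 3 to 2.35 without 168FARN *Kmt2c* KO replicate 3, and those of *Ube2c* and *Prc1* with *Kmt2d* KO from -2.36 to 1.45 and from -0.07 to 1.75. Scaling by total counts turned the median for *Kmt2d* KO of 67NR from 0.09 to -0.16 and moved that of all genes from -0.02 to -0.21. Where these changes do not follow from the libraries left out, the cause was not tested. The median standard error in the comparisons of genotypes within a line was 0.78 to 0.87 in the fit by genotype alone, 0.11 to 0.25 with the block and 0.11 to 0.13 in replicates 1 and 2.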
